A study of Mus musculus with 2 samples.

Results

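A set of 10 genes of transforming growth factor-β (TGF-β) and bone morphogenetic protein (BMP) signalling was followed in endothelial cells of mouse skin tumors: the receptors Tgfbr1, Tgfbr2, Acvrl1 and Bmpr2, the co-receptor Eng, the signal carrier Smad1, the inhibitory Smads Smad6 and Smad7, and the target genes Id1 and Id3. They were taken by symbol, 10 of the 32285 genes in the tables, and all 10 had a row. One library came from Ifngr1iProx1 (Cre plus) mice, in which the name places a Cre under Prox1, the transcription factor of lymphatic endothelial identity, and the other from Ifngr1WT (Cre minus) mice. Both were made from B16F10-OVALBUMIN/VEGFC tumors, a mouse melanoma line carrying the model antigen ovalbumin and the lymphatic growth factor VEGF-C, with 500K cells implanted in the skin and tumors taken on day 15. In each genotype 3 tumors were pooled, sorted as DAPI-negative, CD31-positive and CD45-negative, and made into 1 single-cell 3′ library. With 1 library per genotype there was no replicate and no test. The 95% intervals in brackets cover counting error only, not differences between mice, tumors or sorts.

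TGF-β and BMP ligands bind pairs of type II and type I receptor kinases, which phosphorylate receptor Smads that move to the nucleus with Smad4. Tgfbr2 and Tgfbr1 are the type II and type I receptors for TGF-β, while Bmpr2 and Acvrl1 (ALK1) serve BMP9 and BMP10 in endothelium with the help of Eng (endoglin). Smad1 carries the BMP branch, Id1 and Id3 are among its best known targets, and Smad6 and Smad7 are induced by the pathway and dampen it. In humans, inherited loss of ENG or ACVRL1 causes malformed vessels, and loss of BMPR2 is linked to pulmonary arterial hypertension.

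Barcodes were put in a class by marker genes: at least 3 markers detected and a marker score at least 2 times that of the second class. From 2491 Cre plus barcodes with 66704257 unique molecular identifiers (UMIs, 1 per captured RNA molecule), 1777 passed the filters, as did 1549 of 2502 Cre minus barcodes, which held 76967583 UMIs. The libraries shared 1 barcode sequence. The gate gave 722 Cre plus and 188 Cre minus lymphatic barcodes, 188 and 214 blood endothelial, 30 and 22 stromal (pericyte and fibroblast), and 521 and 879 melanoma barcodes. The endothelial label held for the first pair of classes: the 8 pan-endothelial genes summed to 4036 and 3802 CPM (UMIs of a gene per 1000000 UMIs of the class) in lymphatic and 6314 and 6217 CPM in blood endothelial barcodes of Cre plus and Cre minus. The lowest of the 8 stood at only 5.05 and 1.58 CPM in lymphatic barcodes, where the lowest in blood endothelial barcodes was at 180 and 198 CPM. The 8 genes summed to 229 and 215 CPM in stromal barcodes, with 2 of 8 at 0, and to 91.8 and 78.6 CPM in melanoma barcodes, which the CD31 sort did not remove. Ifngr1, the targeted gene, stood at 29.5 CPM (485 UMIs) in Cre plus, against 49.0 CPM (93 UMIs) in Cre minus lymphatic barcodes, a log2 ratio of −0.73 [−1.05, −0.40], against 183 and 155 CPM in blood endothelial barcodes. Since no label gives the deleted exons, whether these 3′ reads could report the deletion is unknown.

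The lymphatic barcodes of the libraries were not alike in make-up. Those in which Malat1, a nuclear RNA, made up 0.1% of UMIs or more (called Malat1-rich) were 427 of 722, or 59.1%, of the Cre plus class but 38 of 188, or 20.2%, of the Cre minus class. Their median depth was 29714 UMIs in Cre plus and 18692 UMIs in Cre minus, while Malat1-poor lymphatic barcodes had medians of 5906 and 5304 UMIs. In blood endothelial barcodes the Malat1-rich share was 74.5% and 64.5%. Lymphatic ratios between genotypes whose call or direction differs among Malat1-rich barcodes are therefore given there too for the members.

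Promoter sequence is shown for 3 of the genes, because among the 7 members with a RefSeq promoter entry (GRCm38.p6) Tgfbr2 leaned most to the lymphatic class and Smad6 and Eng most to the blood endothelial class in the Cre plus library. Each line runs 5′ to 3′ on the gene's strand from 250 bases before the annotated start to 10 bases after it, 260 bases in all. Capitals mark GTCTAGAC, the palindrome known as a binding site of Smad3 and Smad4.
Tgfbr2, chr9:116175354-116175613, minus strand: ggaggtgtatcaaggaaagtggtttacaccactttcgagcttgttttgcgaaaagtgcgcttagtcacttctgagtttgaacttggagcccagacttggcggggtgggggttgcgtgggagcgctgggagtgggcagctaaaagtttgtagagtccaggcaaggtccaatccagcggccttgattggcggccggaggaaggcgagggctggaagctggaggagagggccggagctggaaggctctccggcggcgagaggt
Eng, chr2:32646345-32646604, plus strand: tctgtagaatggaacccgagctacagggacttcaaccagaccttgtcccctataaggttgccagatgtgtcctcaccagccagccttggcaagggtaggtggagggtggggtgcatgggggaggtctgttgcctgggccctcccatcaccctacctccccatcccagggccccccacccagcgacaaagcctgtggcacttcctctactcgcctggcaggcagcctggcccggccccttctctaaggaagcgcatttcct
Smad6, chr9:64022050-64022309, minus strand: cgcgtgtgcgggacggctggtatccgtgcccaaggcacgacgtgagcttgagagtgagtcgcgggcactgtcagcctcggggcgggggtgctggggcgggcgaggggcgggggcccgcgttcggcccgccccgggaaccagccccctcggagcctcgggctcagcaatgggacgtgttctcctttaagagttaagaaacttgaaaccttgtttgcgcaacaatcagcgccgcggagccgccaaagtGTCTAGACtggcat
GTCTAGAC was found in the Smad6 window alone, starting 4 bases before the annotated start, and in 58 of 32841 RefSeq windows of the same length (0.177%). The motifs were searched on both strands. GGCGCC, an element known from BMP-responsive promoters, was found in the windows of Tgfbr1 and Bmpr2 and in 9.96% of all windows. GTCT, the short Smad box, which also lies inside GTCTAGAC, was found in 5 of the 7 members and in 84.0% of all windows. A match describes the letters only. No promoter entry was used for Acvrl1, Smad7 and Id1.

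Lymphatic barcodes carried more Tgfbr2 and Smad1, and less of the other 8 genes, than blood endothelial barcodes of the same tumors. The split was the same in both libraries: 2 of 10 members were at least 1.5-fold higher and 8 of 10 at least 1.5-fold lower with the interval off 0. Among all genes with at least 50 UMIs, 19.3% were higher and 13.3% lower by that rule in Cre plus, and 13.4% were higher and 24.2% lower in Cre minus. The median log2 ratio of the members was −1.65 in Cre plus and −2.11 in Cre minus, where all genes had medians of 0.12 and −0.16. Within Malat1-rich barcodes the counts were again 2 and 8 in both libraries, where 21.1% and 18.6% of genes were higher and 12.1% and 12.3% lower in Cre plus and Cre minus. Among Malat1-poor barcodes, with 6 members measured in each library, 2 were higher and 3 lower in Cre plus, beside 12.6% and 10.1% of genes, and 1 higher and 4 lower in Cre minus, beside 14.6% and 18.7%. Without barcodes that expressed mitosis genes 2 were higher and 8 lower in Cre plus, beside 19.4% and 14.1% of genes, and 1 higher and 8 lower in Cre minus, beside 18.1% and 28.6%, where Smad1 stood at 0.56 [0.36, 0.76].

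**Figure D1:**
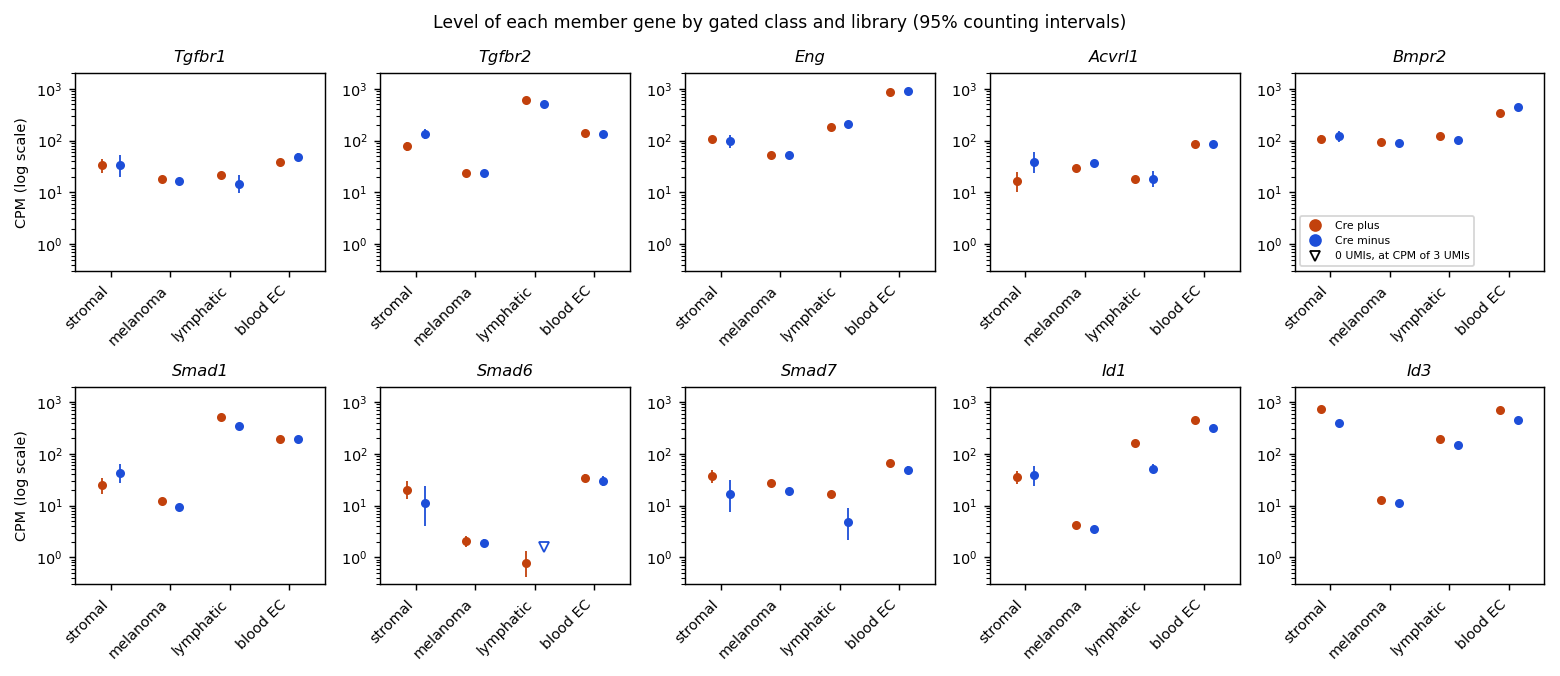
Level of each member gene as CPM on a log axis in stromal, melanoma, lymphatic and blood endothelial (blood EC) barcodes, Cre plus (orange) left of Cre minus (blue), as points with 95% counting intervals; the open triangle marks 0 UMIs, drawn at the CPM of 3 UMIs. Tgfbr2 and Smad1 peak in lymphatic barcodes, and Eng, Acvrl1, Bmpr2, Smad6, Smad7 and Id1 in blood endothelial barcodes of both libraries.

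Tgfbr2 (ENSMUSG00000032440, mm10 chromosome 9, 116084293 to 116175360, minus strand), the receptor that binds TGF-β itself, had 610 CPM in Cre plus, against 507 CPM in Cre minus lymphatic barcodes, against 143 and 133 CPM in blood endothelial barcodes. The lymphatic level was 4.27-fold that of blood endothelium in Cre plus (log2 2.09 [1.97, 2.22]) and 3.81-fold in Cre minus (log2 1.93 [1.76, 2.10]). Its partner Tgfbr1 (ENSMUSG00000007613, chromosome 4, 47353222 to 47414931, plus strand) went the other way, with 21.5 and 14.7 CPM in lymphatic barcodes of Cre plus and Cre minus against 38.2 and 48.2 CPM in blood endothelial barcodes. The log2 ratios of Tgfbr1, lymphatic over blood endothelial, were −0.83 [−1.11, −0.55] in Cre plus and −1.71 [−2.35, −1.12] in Cre minus. Among Malat1-rich barcodes Tgfbr1 had 25.0 CPM in lymphatic against 40.9 CPM in blood endothelial barcodes of Cre plus. In Cre minus the Malat1-rich levels were 32.5 against 56.8 CPM. So the 2 chains of the TGF-β receptor had opposite class bias in both libraries.

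The receptor set of the BMP9 and BMP10 branch was lower in the lymphatic class throughout. Eng (ENSMUSG00000026814, chromosome 2, 32646595 to 32682669, plus strand) had 181 and 212 CPM in lymphatic barcodes of Cre plus and Cre minus, against 867 and 913 CPM in blood endothelial barcodes, which is 4.79-fold and 4.31-fold lower. Acvrl1 (ENSMUSG00000000530, chromosome 15, 101128522 to 101145336, plus strand) had 18.0 and 18.4 CPM in the lymphatic and 87.0 and 84.9 CPM in the blood endothelial class. These levels gave log2 ratios of −2.27 [−2.50, −2.05] in Cre plus and −2.20 [−2.76, −1.69] in Cre minus. Bmpr2 (ENSMUSG00000067336, chromosome 1, 59763400 to 59879014, plus strand) had 123 and 104 CPM in lymphatic barcodes against 343 and 451 CPM in blood endothelial barcodes, 2.79-fold and 4.34-fold lower. For Eng and Acvrl1 the libraries gave nearly the same ratio, and their intervals overlapped, while those of Bmpr2 did not over all barcodes. They overlapped among Malat1-rich barcodes, at −1.42 [−1.52, −1.32] in Cre plus and −1.50 [−1.75, −1.27] in Cre minus. Malat1-poor intervals overlapped as well, at −0.55 [−1.19, 0.15] and −1.01 [−1.71, −0.32].

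Smad1 (ENSMUSG00000031681, chromosome 8, 79338395 to 79399518, minus strand) was the other gene on the lymphatic side. Its level was 522 CPM in Cre plus, against 348 CPM in Cre minus lymphatic barcodes, against 193 and 191 CPM in blood endothelial barcodes. The class ratio was 2.71-fold in Cre plus and 1.82-fold in Cre minus, and within Malat1-rich barcodes 2.88-fold and 2.98-fold. In the same barcodes that held most Smad1, its inhibitor Smad6 (ENSMUSG00000036867, chromosome 9, 63953076 to 64022059, minus strand) was close to missing. Smad6 had 13 UMIs in 16445702 (0.79 CPM) in Cre plus and 0 UMIs in 1898747 in Cre minus lymphatic barcodes, against 142 and 94 UMIs, or 34.5 and 30.0 CPM, in blood endothelial barcodes. That is 43.7-fold lower in Cre plus, with a log2 ratio of −5.45 [−6.39, −4.63], and at least 19.0-fold lower in Cre minus when its 0 is set to 3 counts over the class. Smad7, which acts on both branches, had 17.1 CPM (281 UMIs) in Cre plus, against 4.74 CPM (9 UMIs, in 2 barcodes) in Cre minus lymphatic barcodes. Blood endothelial barcodes had 65.6 and 49.5 CPM of Smad7, so the lymphatic class was 3.84-fold and 10.4-fold lower. Among Malat1-rich barcodes Smad7 had 20.1 CPM in lymphatic against 69.9 CPM in blood endothelial barcodes of Cre plus. In Cre minus the Malat1-rich levels were 10.5 CPM, from the same 9 UMIs, against 53.7 CPM.

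Of the target genes, Id1 (ENSMUSG00000042745, chromosome 2, 152736251 to 152737410, plus strand), a helix-loop-helix protein that blocks the DNA binding of its partners, had 163 CPM in Cre plus, against 51.6 CPM in Cre minus lymphatic barcodes. In blood endothelial barcodes it had 454 and 313 CPM, and the class ratios were log2 −1.48 [−1.56, −1.39] in Cre plus and −2.60 [−2.92, −2.30] in Cre minus. Id3 (ENSMUSG00000007872, chromosome 4, 136143497 to 136145755, plus strand), of the same family, had 195 and 147 CPM in lymphatic and 690 and 446 CPM in blood endothelial barcodes, 3.53-fold and 3.03-fold lower in the lymphatic class. The Malat1-rich Id1 ratios, −1.37 in Cre plus and −1.61 in Cre minus, had overlapping intervals, unlike those over all barcodes.

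**Figure D2:**
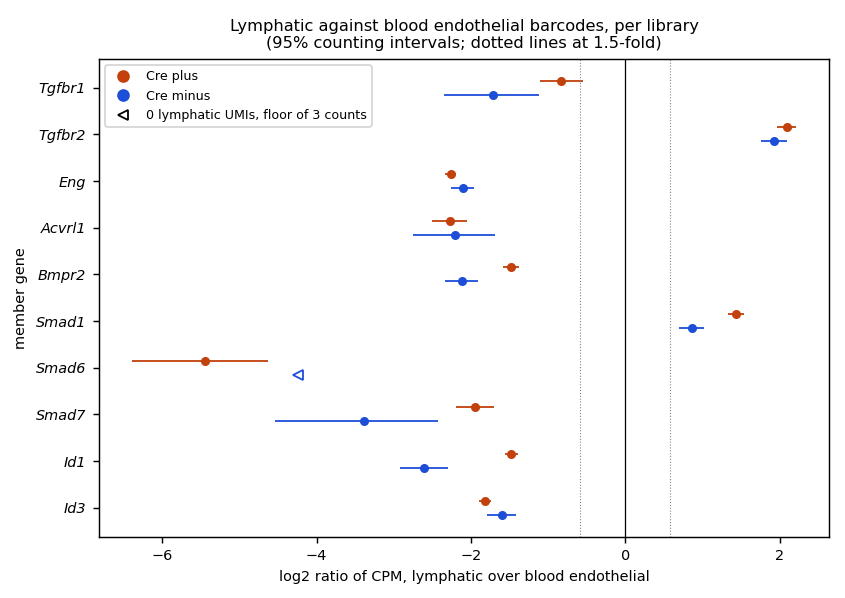
Log2 ratio of CPM, lymphatic over blood endothelial barcodes, for each member in Cre plus (orange, upper) and Cre minus (blue, lower), with 95% counting intervals and dotted lines at 1.5-fold; the open triangle is the bound for 0 lymphatic UMIs. Tgfbr2 and Smad1 lie right of 0, and the other 8 members left of it, in both libraries.

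Free RNA from broken cells can add to such levels. The 9 blood endothelial markers gave lymphatic sums of 409 CPM for Cre plus and 366 CPM for Cre minus, with 0 and 2 of 9 at 0, against 7788 and 8563 CPM in blood endothelial barcodes. They did not stand at 1 share of their blood endothelial level: in the Cre plus and Cre minus libraries Flt1 was at 0.25% and 0.06%, Emcn at 3.10% and 1.79%, and Plvap, the highest of them, at 14.8% and 16.7%. A single floor for free RNA was therefore not set in this class. Smad6 stood at 2.29% [1.19, 4.04] in Cre plus and at 0 in Cre minus, and the other members below their blood level at 20.7% or more in Cre plus. Eng was at 20.9% in Cre plus and 23.2% in Cre minus, above each of these 3 markers. The gate used those 3 markers but not Eng, so selection itself lowers them in lymphatic barcodes. They are thus no yardstick for free RNA of Eng or of the other members. In melanoma barcodes, 7 of the 8 pan-endothelial genes stood at 0.13% to 1.14% of their level in both endothelial classes summed, and Egfl7 at 6.56% in Cre plus and 5.59% in Cre minus. Every member exceeded at least 7 of those 8 genes in both libraries. The 8 were listed as endothelial genes, and the share of all genes that exceed them is not given. Over all genes the median log2 ratio, melanoma over blood endothelial, was −0.01 in Cre plus and 0.02 in Cre minus. The count therefore does not set the members apart from other genes. Id1 was the lowest member at 1.88% and 1.64%, while Smad7 stood at 102% and 58.6% and Acvrl1 at 92.3% and 62.8%. These percentages depend on the mix of the 2 endothelial classes, which differed between libraries. Acvrl1 had 31.8 and 59.8 CPM in the summed classes of Cre plus and Cre minus, and 29.4 and 37.6 CPM in melanoma barcodes. Its percentage was thus higher in Cre plus although its melanoma level was lower.

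**Figure D3:**
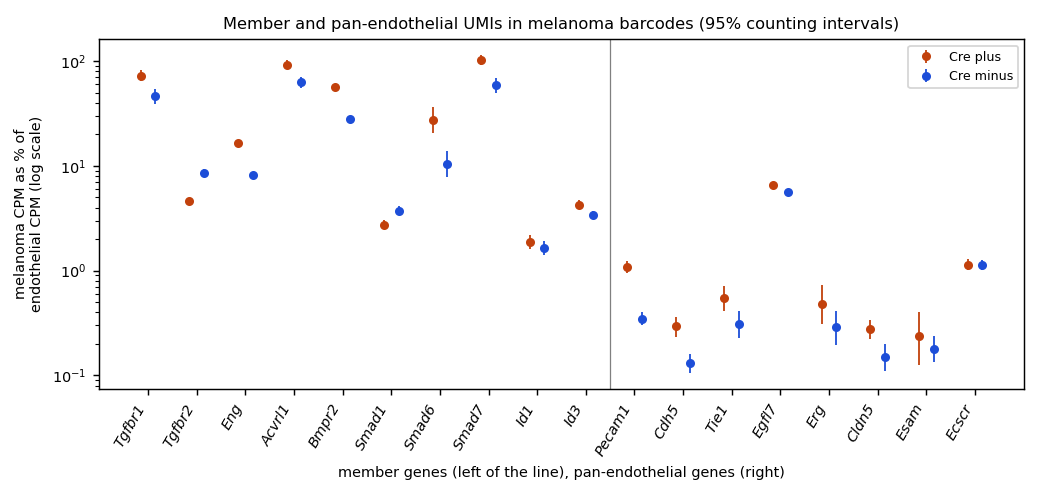
CPM in melanoma barcodes as a percentage of CPM in both endothelial classes summed, on a log axis, for the 10 members (left of the line) and 8 pan-endothelial genes (right), Cre plus (orange) left of Cre minus (blue), with 95% counting intervals. All members lie above 1% and the pan-endothelial genes other than Egfl7 at or near 1% or below.

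In melanoma barcodes all 10 members were at least 1.5-fold below blood endothelium in each library, where 33.0% of genes were lower in Cre plus and 32.5% in Cre minus. Bmpr2 had 94.2 and 89.8 CPM there, Eng 52.6 and 53.4 CPM, Acvrl1 29.4 and 37.6 CPM, Smad7 27.3 and 19.1 CPM, Tgfbr2 24.0 and 23.6 CPM, and Tgfbr1 17.9 and 16.3 CPM, in Cre plus and Cre minus. The lower levels there were those of Id3 (12.6 and 11.3 CPM), Smad1 (12.5 and 9.33 CPM), Id1 (4.16 and 3.52 CPM) and Smad6 (2.06 and 1.93 CPM), given per library and not per length. In stromal barcodes 8 of 10 members were lower than in blood endothelium in Cre plus, as were 7 of 10 in Cre minus, beside 24.6% and 22.0% of genes. Id3 was not among them and had 742 CPM in Cre plus, against 399 CPM in Cre minus stromal barcodes. Their Eng was 106 and 97.5 CPM and their Id1 35.4 and 38.6 CPM. Stromal Smad6, at 20.3 CPM from 27 UMIs and 11.0 CPM from 6 UMIs, was above the lymphatic level in both libraries.

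The comparison of genotypes asked how the members stood in Cre plus tumors relative to Cre minus ones. In lymphatic barcodes 9 of the 10 members had at least 50 UMIs over both libraries, and 3 of them, Id1, Smad7 and Smad1, were at least 1.5-fold higher in Cre plus with the interval off 0, while 0 were lower. Over all genes 13.8% were higher and 2.11% lower by the same rule. The members' median log2 ratio was 0.41, beside 0.24 over all 11210 genes measured, a shift of the whole class. Relative to that shift Id1 stood at 1.42 and Smad7 at 1.61, both past 1.5-fold, and Smad1 at 0.35, short of it.

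Id1 had the largest difference among members with over 50 UMIs in each library: 163 CPM (2683 UMIs) in Cre plus, against 51.6 CPM (98 UMIs) in Cre minus lymphatic barcodes, 3.16-fold, log2 1.66 [1.37, 1.97]. A UMI of Id1 was seen in 371 of 722 Cre plus and 24 of 188 Cre minus barcodes. In Cre minus the 19 barcodes richest in Id1 held 94.9% of its UMIs, against 55.6% in the 73 richest barcodes of Cre plus, the top 10% in each. Few Cre minus barcodes had an Id1 UMI at all, which raises that share. Among Malat1-rich barcodes the top 10% held 59.1% in Cre minus and 42.8% in Cre plus. At an equal depth of 2000 UMIs per barcode, 18.3% [15.4, 21.4] of Cre plus and 4.89% [2.26, 9.08] of Cre minus lymphatic barcodes had a UMI of Id1, where melanoma barcodes had 0.20% and 0.70%. The ratio was smaller among Malat1-rich barcodes, 178 and 102 CPM, log2 0.80 [0.49, 1.12], and larger among Malat1-poor ones, 83.4 and 9.63 CPM from 215 and 10 UMIs, log2 3.12 [2.21, 4.20]. Without barcodes that expressed mitosis genes it was log2 2.21 [1.80, 2.65]. Without those barcodes 3 of 9 measured members were higher (Id1, Smad1 and Smad7) and 0 lower, beside 15.2% and 2.16% of genes. The Id1 interval was above 0 in each of these strata, at different sizes.

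**Figure D4:**
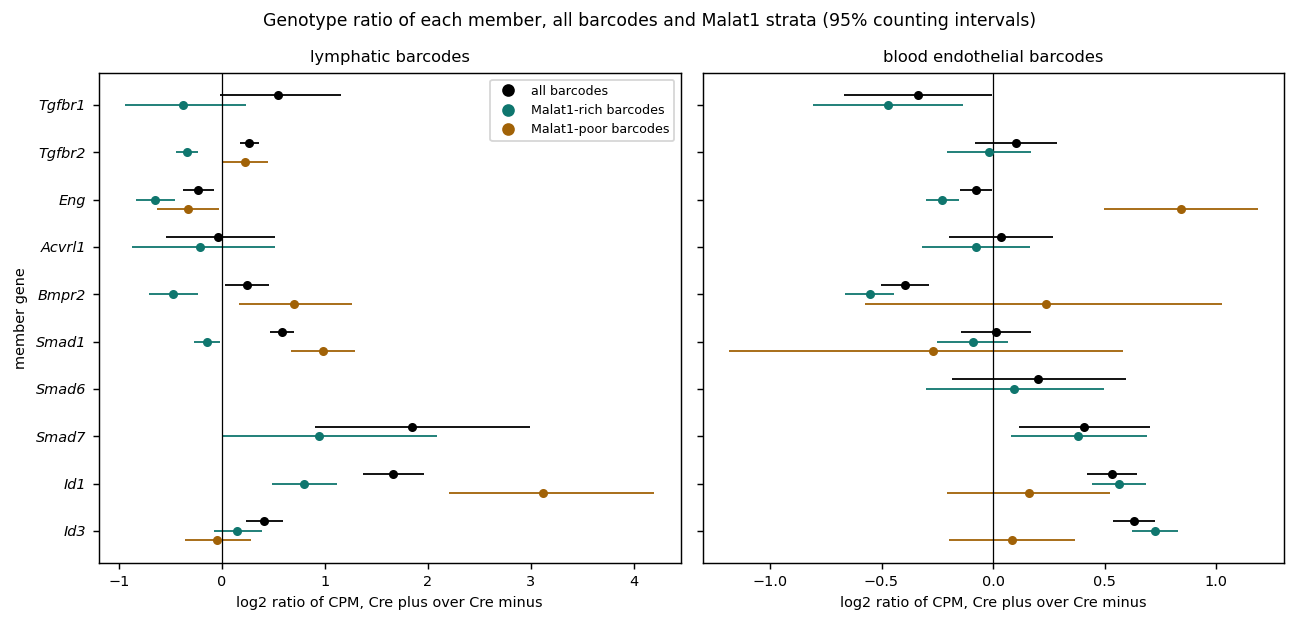
Log2 ratio of CPM, Cre plus over Cre minus, for each member in lymphatic (left panel) and blood endothelial barcodes (right panel): all barcodes in black, Malat1-rich in green and Malat1-poor in brown, with 95% counting intervals, for ratios that rest on at least 50 UMIs and no count of 0. In lymphatic barcodes Id1 lies right of 0 in all 3, while Tgfbr2, Bmpr2 and Smad1 change side between all and Malat1-rich barcodes.

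Smad7 had 17.1 and 4.74 CPM in lymphatic barcodes of Cre plus and Cre minus, log2 1.85 [0.90, 2.99], but its 9 Cre minus UMIs came from 2 barcodes, both of them expressing mitosis genes and rich in Malat1. Among Malat1-rich barcodes the ratio was 0.94 [−0.00, 2.09]. Smad1, at 522 and 348 CPM, had a log2 ratio of 0.59 [0.47, 0.70] over all barcodes, 0.98 [0.68, 1.29] among Malat1-poor and −0.15 [−0.27, −0.02] among Malat1-rich barcodes. Its direction thus differed between these strata. Tgfbr2 turned in the same manner, 0.27 [0.17, 0.37] over all and −0.34 [−0.45, −0.23] in Malat1-rich barcodes, and Bmpr2 gave 0.24 [0.03, 0.46] and −0.47 [−0.70, −0.23]. Summed Eng was lower in Cre plus on both counts, at −0.23 [−0.38, −0.07] over all and −0.65 [−0.83, −0.46] among Malat1-rich barcodes, where its levels were 195 and 305 CPM. There the 4 Cre minus barcodes richest in Eng held 46.2% of its UMIs, against 30.3% in the 43 richest of Cre plus, the top 10% in each. Over all barcodes Eng was at 0.02 [−0.13, 0.18] as a mean over barcodes and at 0.05 [−0.38, 0.51] at 2000 UMIs per barcode. Id3 was at 0.41 [0.23, 0.59] over all and 0.15 [−0.08, 0.39] among Malat1-rich barcodes. Tgfbr1, at 0.54 [−0.01, 1.15] over all and −0.38 [−0.94, 0.23] among Malat1-rich barcodes, and Acvrl1, at −0.03 [−0.54, 0.51], were not told apart from 0 at this depth.

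Within Malat1-rich lymphatic barcodes 1 of 9 measured members, Id1, was thus higher and 1, Eng, lower, where 6.08% of genes were higher and 12.1% lower. Among Malat1-poor ones 3 of 6 measured members were higher (Id1, Smad1 and Bmpr2), where 14.0% of genes were higher and 2.44% lower. Other measures moved with the genotype in this class. In lymphatic barcodes the 9 macrophage markers came to 20.1 CPM for Cre plus against 64.3 CPM for Cre minus, with 1 of 9 at 0 in each. The 9 melanoma markers together came to 61.1 and 140 CPM with none at 0. Stromal markers, 13 in all, came to 218 and 147 CPM, of which a single gene gave 211 and 145 CPM and 3 and 9 were at 0. Barcodes with at least 3 of 12 mitosis genes were 31.4% of the lymphatic class in Cre plus and 18.1% in Cre minus. Their part in the ratios was not tested beyond the strata given.

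In blood endothelial barcodes Prox1 stood at 0.42% of its lymphatic level in Cre plus and at 0 in Cre minus. Prox1 is a lymphatic gate marker, so the gate itself lowers it there. This class had 1 of 10 members at least 1.5-fold higher in Cre plus, Id3, and 0 lower, with 5.67% of genes higher and 4.14% lower. Id3 had 690 CPM in Cre plus, against 446 CPM in Cre minus, log2 0.63 [0.54, 0.72]. Id1 followed at 454 and 313 CPM, log2 0.53 [0.42, 0.65], short of 1.5-fold. Among Malat1-rich barcodes Id3 was at 0.72 [0.62, 0.83] and Id1 at 0.56 [0.44, 0.69], again 1 of 10 higher and 0 lower, beside 7.07% and 7.93% of genes. Without barcodes that expressed mitosis genes 2 of 10 were higher, Id1 at 0.92 [0.77, 1.07] and Id3 at 0.90 [0.78, 1.03], and 1 was lower, Tgfbr1 at −0.75 [−1.15, −0.35], beside 8.15% and 6.32% of genes. Among Malat1-poor blood endothelial barcodes 1 of 5 measured members, Eng, was higher and 0 lower, beside 7.89% and 4.82% of genes. Id1 was there at 0.16 [−0.21, 0.52] and Id3 at 0.09 [−0.20, 0.36], so neither was told apart from 0. In barcodes expressing mitosis genes Id1 did not rise, at 366 [339, 396] CPM for Cre plus against 379 [344, 416] CPM for Cre minus. Id3 stood at 637 [600, 675] against 539 [498, 583] CPM in those barcodes. Over all barcodes of this class Bmpr2 was lower in Cre plus, 343 and 451 CPM, log2 −0.40 [−0.50, −0.29], and Smad7 was at 0.41 [0.12, 0.70]. The remaining 6 members lay between −0.34 and 0.20. The 13 stromal markers gave blood endothelial sums of 137 CPM for Cre plus and 79.5 CPM for Cre minus, with 5 and 4 at 0 and a single gene, Kcnj8, giving 103 and 67.4 CPM. The 9 melanoma markers came to 50.1 and 117 CPM with none at 0, and the 9 macrophage markers to 6.56 and 12.8 CPM with 1 and 2 at 0. Their part in the Id3 ratio was not tested. The Id1 ratio was larger in the lymphatic than in the blood endothelial class, but Malat1 make-up differed more between genotypes in the lymphatic class, and with 1 library each the difference was not tested.

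In stromal barcodes 8 members were measured, of which 2 were higher in Cre plus and 1 was lower, where 5.94% of genes were higher and 9.95% lower. These were Id3 (742 and 399 CPM), Smad7 (37.6 and 16.6 CPM from 50 and 9 UMIs) and, lower, Tgfbr2 (78.2 and 136 CPM). These ratios rest on few barcodes. The 3 stromal barcodes richest in Tgfbr2 held 76.0% and 82.4% of its UMIs. For Id3 the 3 richest held 46.9% and 70.5%, and for Smad7 56.0% and 77.8%. At equal depth Tgfbr2 was seen in 1 of 28 Cre plus and 1 of 22 Cre minus stromal barcodes, so its lower level was not seen there as a lower share. Id3 was seen in 53.6% [33.9, 72.5] and 36.4% [17.2, 59.3] of them. In melanoma barcodes 0 of 10 members passed in either direction, with 2.14% of genes higher and 2.37% lower. The melanoma ratios lay between −0.35 for Acvrl1 and 0.52 for Smad7. No test stood behind these counts, as elsewhere.

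**Figure D5:**
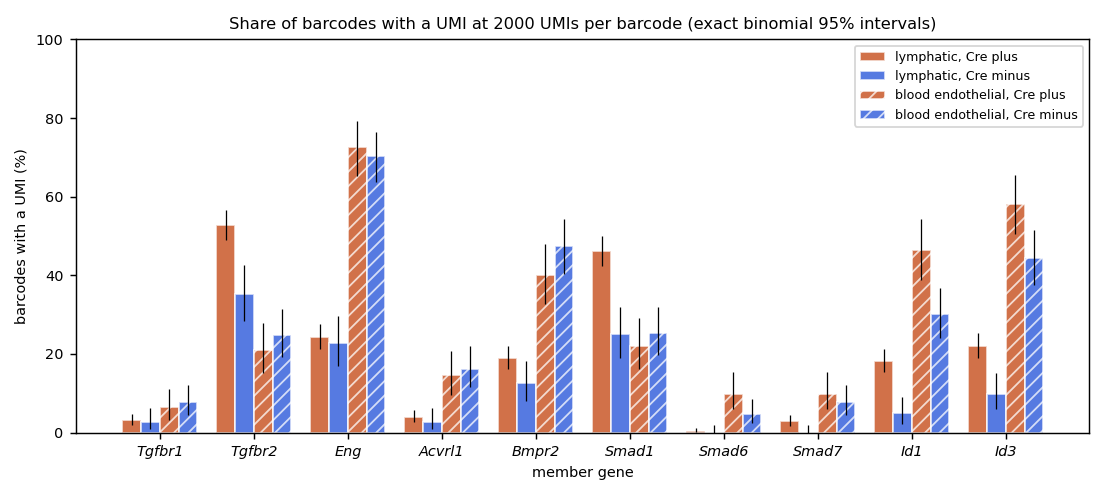
Share of barcodes with at least 1 UMI of each member after every barcode was thinned to 2000 UMIs, in lymphatic (plain bars) and blood endothelial barcodes (hatched), Cre plus (orange) left of Cre minus (blue), with exact binomial 95% intervals. Id1 was seen in 18.3% of Cre plus and 4.89% of Cre minus lymphatic barcodes.

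The members also varied from barcode to barcode. At 2000 UMIs per barcode, which left out 32 Cre plus and 4 Cre minus lymphatic barcodes, Tgfbr2 was seen in 52.8% [49.0, 56.5] and 35.3% [28.4, 42.7], and Smad1 in 46.1% [42.3, 49.9] and 25.0% [18.9, 31.9] of lymphatic barcodes. Melanoma barcodes had 2.62% and 2.69% for Tgfbr2 and 2.01% and 1.29% for Smad1. Eng was seen in 24.3% and 22.8% of lymphatic and in 72.7% and 70.3% of blood endothelial barcodes. Smad6 was seen in 2 of 690 and in 0 of 184 thinned lymphatic barcodes, the second of which allows a share of up to 1.63%, and in 9.88% and 4.78% of blood endothelial barcodes. Before thinning, a UMI of Tgfbr2 was seen in 82.7% and 67.6%, of Smad1 in 71.6% and 37.8%, of Eng in 73.3% and 55.9% and of Id1 in 51.4% and 12.8% of lymphatic barcodes in Cre plus and Cre minus.

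Id3 was seen in a larger share of barcodes with Id1 than of those without it, in both classes and libraries. At equal depth Id3 was seen in 47.6% of Cre plus lymphatic barcodes with Id1 and in 16.3% of those without it. In Cre minus the shares were 22.2% of the 9 barcodes with Id1 and 9.14% of the others. In blood endothelial barcodes they were 71.3% and 46.7% in Cre plus, and 60.3% and 37.7% in Cre minus. Lymphatic Smad1 was seen in 54.9% of barcodes with Tgfbr2 and 36.2% of those without it in Cre plus, and in 44.6% and 14.3% in Cre minus. Blood endothelial Smad1 was seen in 27.8% of barcodes with Tgfbr2 and 20.6% of those without it in Cre plus, and in 32.7% and 22.9% in Cre minus. Not every pair went this way. With and without Id1, blood endothelial Smad1 was seen in 17.5% and 26.1% of Cre plus, and in 23.8% and 26.0% of Cre minus barcodes. For lymphatic Smad1 the shares were 57.1% and 43.6%, and 77.8% and 22.3%. Blood endothelial Smad7 was seen in 8.75% and 10.9% in Cre plus, and in 17.5% and 3.42% in Cre minus. Lymphatic Smad7 was at 8.73% and 1.60% in Cre plus, and at 0 in Cre minus. Barcodes of 1 library share its pool and its Malat1 make-up, so these shares are given without a test.

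Malat1-rich barcodes had higher CPM of most members, a contrast chosen after the values were seen. In the lymphatic class 9 of 9 measured members were at least 1.5-fold higher in Malat1-rich than in Malat1-poor barcodes of Cre plus, and 6 of 6 in Cre minus, but so were 55.3% and 53.0% of all genes. Tgfbr1 had 25.0 and 2.33 CPM in Malat1-rich and Malat1-poor barcodes of Cre plus, and 32.5 and 0 CPM in those of Cre minus. In the blood endothelial class 8 of 10 were higher in each library, beside 32.6% of genes in Cre plus and 48.4% in Cre minus. Id1 and Id3 were the other members, with Id1 at 460 and 363 CPM in Malat1-rich and Malat1-poor barcodes of Cre plus and at 311 and 324 CPM in those of Cre minus. Barcodes expressing mitosis genes differed less: in blood endothelium they were lower in Tgfbr2 and Smad6 in Cre plus, 2 of 10 members beside 12.7% of genes, and in 5 of 10 (Tgfbr1, Tgfbr2, Bmpr2, Smad6 and Smad7) beside 24.6% of genes in Cre minus. In the lymphatic class 1 member was lower in Cre plus (Acvrl1, 13.6 and 22.0 CPM, beside 6.36% of genes) and 1 of 6 higher in Cre minus (Id1, 89.0 and 36.8 CPM, beside 10.3% of genes).

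Across the 8 sums of class and library, the genes most like 3 of the members, by Pearson's r of log2(CPM + 1) among 10786 genes with at least 100 endothelial UMIs, were the following. Eng was matched best by Plcb1, a phospholipase C (r = 0.996), and Itga2, a collagen-binding integrin chain (r = 0.993). Plcb1 had 21.5 and 36.9 CPM in lymphatic and 993 and 1493 CPM in blood endothelial barcodes of Cre plus and Cre minus. Id1 was matched best by Zscan26 (r = 0.993) and Hpcal1 (r = 0.991), and Smad6 by the matricellular gene Ccn4 (r = 0.988) and the growth factor Hbegf (r = 0.981). Ccn4 had 1.16 CPM in Cre plus and 0 in Cre minus lymphatic barcodes, against 33.8 and 50.8 CPM in blood endothelial ones. The points share 2 pools and differ in depth, and the likeness is a description.

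The wider pathway was followed in 80 further genes, with ratios called by the same rule and the same background shares. The ligand list held 14 genes, among them Bmp1, which encodes a protease and not a ligand. Of these 14, 7 were measured between the classes in Cre plus and 5 in Cre minus, with 2 and 1 higher and 4 and 3 lower in lymphatic barcodes. Tgfb3 had 29.9 and 29.5 CPM in lymphatic barcodes and 0 in blood endothelial barcodes of both libraries. Tgfb1, the abundant ligand, had 463 and 463 CPM in lymphatic and 329 and 327 CPM in blood endothelial barcodes of Cre plus and Cre minus. Bmp6 had 0.91 and 3.16 CPM in lymphatic and 53.2 and 30.0 CPM in blood endothelial barcodes, and Inhbb and Bmp1 were lower in lymphatic barcodes of both libraries. Gdf15, with 93 and 1 UMIs, and Tgfb2 made up the counts in Cre plus, as higher and lower. Between genotypes 1 of 6 measured genes of this list, Gdf15, was higher in Cre plus lymphatic barcodes (93 and 1 UMIs, log2 3.42 [0.91, 8.74]) and 0 were lower. Among Malat1-rich barcodes Gdf15 was again the 1 higher, and the protease gene Bmp1 was lower, at 43.3 and 74.4 CPM, log2 −0.78 [−1.15, −0.38].

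Of 11 other receptors and co-receptors, the betaglycan gene Tgfbr3, a co-receptor that presents TGF-β to Tgfbr2, had 184 and 111 CPM in lymphatic against 57.1 and 40.5 CPM in blood endothelial barcodes, and so shared the class bias of Tgfbr2. In the Cre plus library it was the 1 gene of 6 measured that was higher in the lymphatic class, and the BMP co-receptor Rgmb was the 1 that was lower. In Cre minus 1 of 4 was higher, Tgfbr3 again, and 2 were lower, Acvr2a and Rgmb. Among Malat1-rich barcodes of Cre minus 0 of 4 were lower, with Acvr2a at −0.07 [−0.42, 0.27] and Rgmb at −0.29 [−1.30, 0.61], and Acvr1 was higher beside Tgfbr3. Between genotypes 2 of 6 were higher in Cre plus lymphatic barcodes, Tgfbr3 and the activin receptor Acvr2a, and 0 lower. Among Malat1-rich barcodes 0 were higher and 1, Acvr1, was lower, with Tgfbr3 at 212 and 220 CPM. Of the 4 measured other Smads, 0 differed between classes by the rule in Cre plus and 1, Smad3, was lower in Cre minus. Smad3 was at −0.03 [−0.55, 0.47] among Malat1-rich barcodes of Cre minus, where 0 of 4 were lower and Smad4 was higher. Between genotypes 1 of 4, Smad3, was higher in Cre plus lymphatic barcodes (40.2 and 24.2 CPM), and none was among Malat1-rich ones (46.6 and 52.3 CPM). The shared partner Smad4 had 106 and 92.7 CPM in lymphatic and 90.0 and 89.4 CPM in blood endothelial barcodes.

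Of 20 extracellular regulators, 9 were measured between the classes in Cre plus and 6 in Cre minus, with 4 and 2 higher and 4 and 2 lower in lymphatic barcodes. The latent TGF-β binding protein Ltbp4 (327 and 300 CPM in lymphatic, 99.7 and 123 CPM in blood endothelial barcodes) and the BMP-binding Twsg1 were higher in both libraries. The latency genes Nrros (8.09 and 7.90 CPM against 151 and 147 CPM) and Thbs1 (23.2 and 57.4 CPM against 286 and 170 CPM) were lower in both. In the Cre plus library Ltbp1 and Ltbp3 were also higher in the lymphatic class, and Fstl1 and Mgp lower. Between genotypes 1 of 8, Ltbp1, was higher in Cre plus lymphatic barcodes (17.0 and 7.90 CPM), and 0 of 8 were among Malat1-rich ones (Ltbp1 at 19.0 and 12.8 CPM, log2 0.57 [−0.29, 1.59]). Thbs1, an activator of latent TGF-β, was also the 1 of 8 that was lower in Cre plus lymphatic barcodes, log2 −1.31 [−1.62, −0.99], and −2.19 [−2.50, −1.86] among Malat1-rich ones. In blood endothelial barcodes Thbs1 went the other way between genotypes, 286 and 170 CPM, log2 0.75 [0.60, 0.90].

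All 11 inhibitors that act in the cell or at its surface were measured between the classes in Cre plus and 10 in Cre minus, with 2 and 1 higher and 4 and 4 lower in lymphatic barcodes. The pseudoreceptor Bambi had 12.9 and 8.43 CPM in lymphatic and 232 and 192 CPM in blood endothelial barcodes, and the ubiquitin ligase Smurf2, the corepressor Skil and the TGF-β co-receptor Cd109 were lower as well in both libraries. Among Malat1-rich barcodes of Cre minus Smurf2 was at −0.58 [−0.83, −0.35], just short of 1.5-fold, and Smurf1 was higher beside Tgif1. Tgif2 was higher in the lymphatic class in the Cre plus library. The corepressor Tgif1 was higher in both, at 46.2 and 37.9 CPM against 23.8 and 10.5 CPM. Pmepa1, a TGF-β-induced inhibitor, had 380 and 282 CPM in lymphatic and 277 and 292 CPM in blood endothelial barcodes. Between genotypes 1 of 11, Cd109, was higher in Cre plus lymphatic barcodes and 0 lower. Among Malat1-rich barcodes 0 of 11 were higher or lower, with Cd109 at 56.2 and 51.1 CPM, log2 0.14 [−0.30, 0.61].

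Of 19 further target genes, 13 were measured between the classes in Cre plus and 11 in Cre minus, with 1 and 1 higher and 8 and 6 lower in lymphatic barcodes. Fibronectin (Fn1) was the higher one, 1673 and 2031 CPM in lymphatic against 416 and 202 CPM in blood endothelial barcodes. Ccn2 (18.6 and 12.1 CPM against 432 and 312 CPM), Ccn1 (30.2 and 14.7 CPM against 148 and 138 CPM) and Hey1 (8.33 and 5.27 CPM against 46.0 and 34.5 CPM) were lower. Between genotypes Ccn1, Ccn2, Junb and Snai1 were among those higher in Cre plus lymphatic barcodes, Snai1 being named after its values were seen, and 0 of the 12 measured were lower. Junb, an early-response gene, had 199 and 87.4 CPM, log2 1.18 [0.96, 1.42], and in blood endothelial barcodes 165 and 71.8 CPM, log2 1.20 [0.98, 1.43]. Among Malat1-rich lymphatic barcodes Junb and Tagln2 were among those higher and 1 of 12, Fn1, was lower. Ccn1, Ccn2 and Snai1 were neither higher nor lower there by the rule, with Ccn2 at −0.18 [−0.82, 0.53].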

How the data were processed

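Single-cell 3′ libraries (kit v3.1) of sorted tumor cells were analysed, 1 per genotype. The deposited matrices hold UMI counts, whole numbers per gene and barcode, for 32285 genes. Cell Ranger 7.0.0 and the build mm10 are listed in the submitters' processing notes; no source names the annotation. Positions come from GENCODE on mm10.

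Barcodes with at least 500 genes, under 10% mitochondrial and at most 50% haemoglobin UMIs were kept and gated on fixed marker lists, scored relative to the 20 top barcodes per marker. Those under the margin of 2 stayed ungated: 254 of Cre plus and 169 of Cre minus, with 138 and 54 led by lymphatic markers. No doublet caller was run, so mixed barcodes with a clear leading class stay in. Clusters (scanpy 1.11.5, Leiden resolution 1) held 721 of 722 and 188 of 188 gated lymphatic barcodes under that name. UMIs were summed per class and library into CPM, with exact Poisson intervals for levels, exact conditional binomial intervals for ratios and exact Clopper-Pearson intervals for shares (scipy 1.17.1), checked on simulated data. A gene counts as measured with at least 50 UMIs in a comparison and as higher or lower past 1.5-fold with its interval off 0. Where 1 class has 0 UMIs, the fold is set against 3 counts over the class. Pathway genes named singly had at least 50 endothelial UMIs and were, per list, up to 4 with the highest lymphatic CPM and up to 4 with an interval beyond 1.5-fold in a lymphatic comparison. For likeness, the 2 genes with the highest r were named for Eng, Id1 and Smad6. Genes of short counts were also named after their values were seen. Alternatives covered the barcode filter, gate margin, clusters, scaling, a mean over barcodes, thinning, Malat1 strata, cycling barcodes and the UMI minimum. The members, lists and rules were chosen with earlier results of these data known. A result on 1 target gene is not reported here.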

Additional observations from a re-analysis of the deposited data

Results flagged for a closer look

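Bmpr2 differed in direction between the endothelial classes: its log2 ratio of Cre plus over Cre minus was 0.24 [0.03, 0.46] in lymphatic barcodes and −0.40 [−0.50, −0.29] in blood endothelial barcodes. With 1 library per genotype the difference was not tested. Among Malat1-rich barcodes both were below 0, at −0.47 in the lymphatic and −0.55 in the blood endothelial class. Among Malat1-poor barcodes both were above 0. Bmpr2 there had 56.3 and 34.7 CPM in lymphatic barcodes of Cre plus and Cre minus. In Malat1-poor blood endothelial barcodes its ratio was 0.24 [−0.58, 1.02].

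Tgfbr1 was high in barcodes outside the 4 classes of the comparisons. In barcodes gated as macrophages, 42 in Cre plus and 60 in Cre minus, it had 137 CPM and 172 CPM, above its level in any of the 4 classes, whose highest values were 38.2 and 48.2 CPM in blood endothelial barcodes.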

How the results depend on the processing

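No paired analysis was possible because each genotype has 1 library, and for the same reason no replicate could be left out. Between lymphatic and blood endothelial barcodes 26 recomputed values in Cre plus and 32 in Cre minus moved beyond the counting interval or, for counts, beyond 1.5 times, while 72 and 54 did not, and none of these changed sign. Their medians and counts moved as follows. With a mean over barcodes the median was −2.03 in Cre plus and −2.48 in Cre minus, with 1 member higher in Cre minus. At 2000 UMIs per barcode the medians were −1.75 and −2.56, with 5 and 4 members lower and 1 higher in Cre minus. Among Malat1-poor barcodes they were −1.34 and −1.02, with 3 and 4 lower and 1 higher in Cre minus. Among Malat1-rich barcodes the Cre minus median was −1.55. Without cycling barcodes the medians were −1.84 and −2.34, with 1 higher in Cre minus. For a mean over barcodes and at 2000 UMIs no share of all genes is given beside these counts.

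Between genotypes, the lymphatic median was 0.75 as a mean over barcodes, with 6 members higher, 0.85 at 2000 UMIs, 0.18 relative to all genes and −0.21 among Malat1-rich barcodes, with 1 higher and 1 lower. Over summed lymphatic barcodes all genes had a median of 0.24, and 13.8% of them were higher. No all-gene median or share is given for a mean over barcodes, 2000 UMIs or the stricter barcode filter. Under those settings the members were not compared with all genes. Lymphatic Eng turned to 0.0238 as a mean over barcodes and 0.0532 at 2000 UMIs. Tgfbr2, Bmpr2 and Smad1 turned to −0.34, −0.47 and −0.15 among Malat1-rich barcodes, and Id3 to −0.0426 among Malat1-poor ones. In blood endothelial barcodes 0 members were higher under the stricter filter (1000 genes, 5% mitochondrial), 3 as a mean over barcodes and 2 without cycling barcodes, and 1 was lower at 2000 UMIs and 1 without cycling barcodes. Eng turned there to 0.0105 with Leiden clusters, 0.0600 as a mean over barcodes, 0.0433 at 2000 UMIs and 0.84 among Malat1-poor barcodes, where Bmpr2 turned to 0.24 and Smad7, from 2 and 16 UMIs, to −2.04. The cause was not tested. Smad6 in lymphatic barcodes stayed under 50 UMIs, and depth limits any statement on its genotype ratio.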

Other observations

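Macrophage barcodes, which remained in spite of the CD45-negative sort, had a member profile of their own. Tgfbr2 stood there at 145 CPM in Cre plus, against 106 CPM in Cre minus, Smad7 at 28.5 and 64.8 CPM, and Bmpr2 at 55.6 and 58.0 CPM. Eng was at 41.4 and 18.2 CPM, below its level in the 4 compared classes of each library, and Id1 and Id3 were at 14.3 and 4.55 CPM and at 19.0 and 6.25 CPM. Smad6 had 0 UMIs in Cre plus and 2 UMIs in Cre minus macrophage barcodes.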
